A study of Mus musculus with 16 samples.

Results

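The enzymes that activate fatty acids and oxidize them in mitochondria and peroxisomes were examined in brown adipose tissue (BAT) as a list of 34 genes. The genes were chosen by symbol for their place in the pathway, with earlier results of these data known. All 34 were found among the 49066 genes of the data. They comprise 18 genes of mitochondrial steps, 6 genes of peroxisomal steps and 10 genes that were assigned to neither set. BAT came from C57BL6/J mice, 18 weeks old, that had been fed high-fat diet (HFD) for 12 weeks. GDF15 BKO (KO) mice carried *Gdf15* fl/fl alleles with the Tg(Ucp1-cre)1Evdr transgene, in which the *Ucp1* promoter drives Cre recombinase in thermogenic adipocytes, so that the other cells of the tissue keep the gene. WT littermates carried the same floxed alleles without Cre. The 16 libraries of bulk RNA fell into 4 groups of 4, WT and KO of each sex. The comparison of KO with WT within each sex asks whether the loss of *Gdf15* from thermogenic adipocytes accompanies a different level of these mRNAs after HFD. On this diet the paper reports higher body weight and fat mass than WT in male KO mice and lower in female KO mice. The part of adiposity in the levels was not tested.

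Brown adipocytes burn fatty acids to make heat. A fatty acid is first joined to coenzyme A by an acyl-CoA synthetase, passed across the mitochondrial membranes as an acylcarnitine, and then shortened in repeated rounds of dehydrogenation, hydration, a second dehydrogenation and thiolytic cleavage. Electrons of the first step leave through the electron transfer flavoprotein. Peroxisomes run a parallel route for very long, branched and dicarboxylic fatty acids, and thioesterases undo the activation. Many of these genes are targets of the nuclear receptor PPARα.

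The authors deposited transcript abundances as TPM, in which reads are divided by transcript length and each library is scaled to the same total, so that levels can be compared between genes. How many reads lie behind a value cannot be read from TPM, so the depth is unknown. Between 34.5 and 59.8% of each library's TPM came from the mitochondrial genome. *Gdf15*, the targeted gene, was at 0.368, 0.69, 1.55 and 3.81 TPM in male WT and at 0.0915, 0.0801, 0.255 and 0.272 TPM in male KO, which did not overlap (exact two-sided permutation p = 0.0286, the smallest that 4 libraries against 4 allow). In females it was at 0.0622, 0.311, 0.17 and 0.29 TPM in WT and at 0, 0, 0.0794 and 0 TPM in KO (exact permutation p = 0.0571). *Ucp1*, which defines brown adipocytes, was between 2353 to 4423 TPM in all 16 libraries. The labels number the libraries but do not say that each came from a separate mouse, and p-values measure only the spread between these libraries, which may in part be technical.

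Several libraries stood apart from the rest of their groups. In female KO 1, female KO 4 and male WT 2, transcripts shorter than 1000 bases took 32.4%, 28.3% and 26.1% of the members' TPM, against 15.4 to 21% in the other 13 libraries. Over all nuclear genes the same share was 64.3%, 61.9% and 58.8% in these libraries and 47.7 to 57.9% in the others. In female WT 4, transcripts that could not be matched to a gene took 17.7% of the TPM, with a single transcript at 16.5% and the rest of the library's values sum to correspondingly less. Library names carry a prefix whose meaning is not stated: male WT 1 and 2 have prefix 5, male KO 1 has prefix 10 and the other male libraries have prefix 9. Among females, WT 1 and KO 1 have prefix 10, WT 2 to 4 and KO 3 have prefix 8b, KO 2 has prefix 5 and KO 4 has prefix 9.

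The 34 mRNAs were abundant and spanned a wide range of levels. Together they took 1.93 to 3.78% of the TPM that remained after the mitochondrial genome was set aside, and 87.6 to 90.1% of the members' TPM lay in the 18 mitochondrial genes. The share of 1.93% was that of female WT 4, where unmatched transcripts took 17.7% of the TPM. The next lowest was 2.56% in female KO 1. Of the members, 5 had a mean over 1000 TPM, 17 lay between 100 and 1000 TPM, 9 lay between 10 and 100 TPM and 3 lay under 10 TPM. The highest was *Hadhb*, the β-subunit of the mitochondrial trifunctional protein, at 2679 TPM, followed by the thiolase *Acaa2*, the very long-chain and long-chain acyl-CoA dehydrogenases *Acadvl* and *Acadl*, and the trifunctional α-subunit *Hadha*. The lowest was *Cpt1a*, the liver type of carnitine palmitoyltransferase, at 5.77 TPM. *Cpt1b*, the muscle type that brown fat shares, exceeded *Cpt1a* by 55.4- to 112-fold in each library. The peroxisomal members had means between 15.2 TPM for *Crot* and 127 TPM for *Hsd17b4*.

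The order of the levels was only partly resolved. Of the 33 pairs of neighbours in the order, all 33 overlapped in their ranges over the 16 libraries. The higher neighbour was higher within each library for 6 pairs: *Hadhb* over *Acaa2*, *Acaa2* over *Acadvl*, *Acadm* over *Hadh*, *Crat* over *Acads*, *Cpt2* over *Acot13* and *Acaa1a* over *Acaa1b*. Between the lowest and the highest of the 16 libraries, 22 members differed by less than 2-fold, 9 by 2- to 4-fold and 3 by more. The narrowest was *Hadhb* at 1.38-fold. The 3 widest were *Ehhadh* at 6.03-fold, *Acot11* at 9.39-fold and *Acot1* at 65.1-fold.

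**Figure D1:**
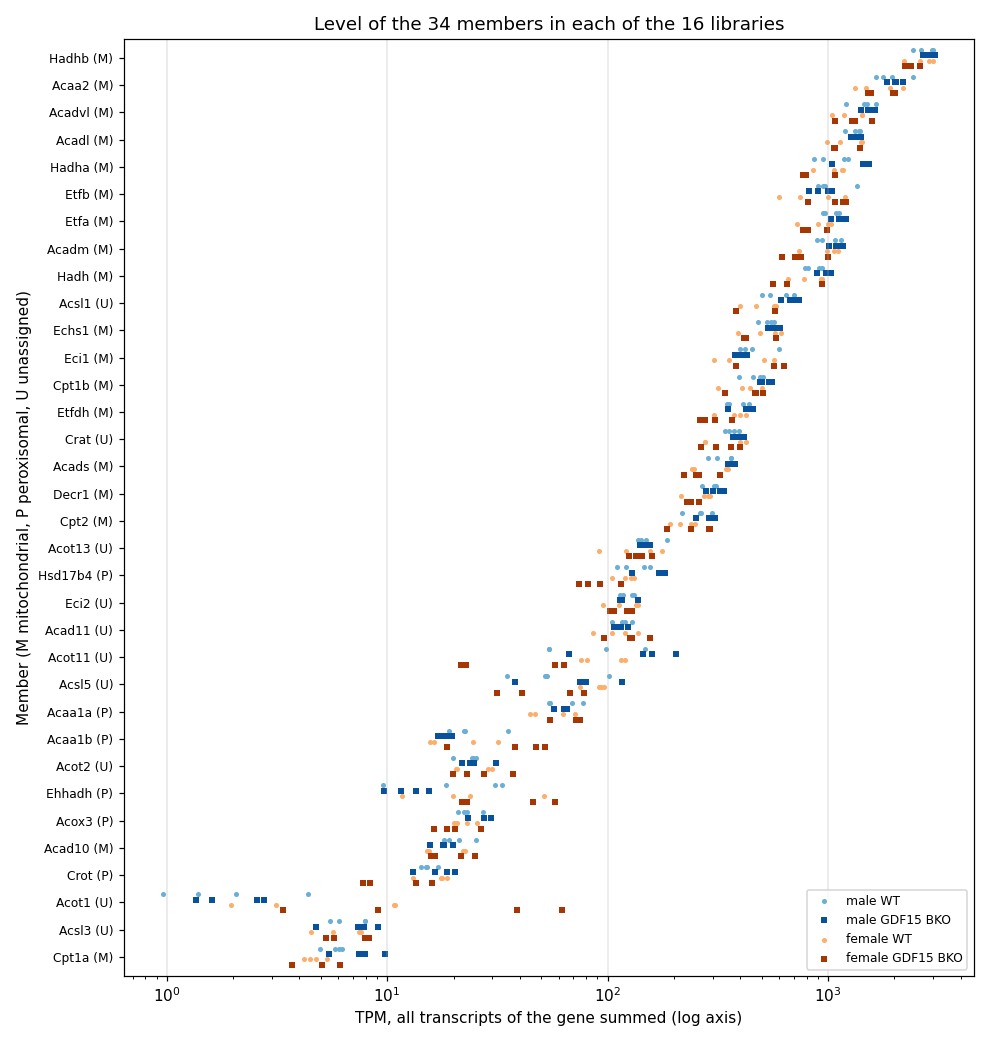
TPM of each of the 34 members on a log axis, with each point 1 library and colours and symbols for the 4 groups. The members run from *Hadhb* at a mean of 2679 TPM to *Cpt1a* at 5.77 TPM, most rows are narrow, and *Acot1*, *Acot11* and *Ehhadh* are the most spread.

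Some members can be told from a near-identical relative by few bases, which bears on their values because an alignment-free counter divides reads that match both copies. The coding sequences of *Acot1* and *Acot2*, a cytosolic and a mitochondrial thioesterase, share 1181 of 1236 aligned bases (95.55%). Those of the thiolases *Acaa1a* and *Acaa1b* share 1228 of 1272 (96.54%). Stretches of 60 bases from the first gap-free part of each pair are shown for their spacing of differences, in capitals, with positions counted from the start codon of the GENCODE transcript.
Acot1-201, bases 5 to 64: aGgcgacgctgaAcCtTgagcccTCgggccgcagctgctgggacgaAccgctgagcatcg
Acot2-201, bases 128 to 187: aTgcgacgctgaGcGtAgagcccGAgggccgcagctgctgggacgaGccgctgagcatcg
Acaa1a-201, bases 1 to 60: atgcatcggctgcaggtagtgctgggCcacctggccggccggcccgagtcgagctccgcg
Acaa1b-201, bases 1 to 60: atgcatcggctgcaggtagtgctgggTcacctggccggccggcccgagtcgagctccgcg
The first pair differs at 7 of the 60 bases and the second at 1. Runs of 31 bases, the usual unit of such counters, were shared with the relatives for 43.76% of those of Acaa1a-201 and 45.69% of those of Acaa1b-201. For *Acot1*, nearly all TPM were assigned to Acot1-202 (622 bases, 32.77% of runs shared) and Acot1-204 (801 bases, 63.55% shared). The values of these 4 genes are therefore less certain than those of the other members.

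*Hadha* and *Hadhb*, the subunits of the trifunctional protein, face away from each other on chromosome 5 with start sites 273 bases apart in RefSeq (GRCm38.p6). The 250 bases before the start of *Hadhb* are shown because they lie between the 2 start sites, with the 228 bases that also lie in the 250 bases before *Hadha* in capitals (chr5:30155003-30155252, plus strand).
Hadhb: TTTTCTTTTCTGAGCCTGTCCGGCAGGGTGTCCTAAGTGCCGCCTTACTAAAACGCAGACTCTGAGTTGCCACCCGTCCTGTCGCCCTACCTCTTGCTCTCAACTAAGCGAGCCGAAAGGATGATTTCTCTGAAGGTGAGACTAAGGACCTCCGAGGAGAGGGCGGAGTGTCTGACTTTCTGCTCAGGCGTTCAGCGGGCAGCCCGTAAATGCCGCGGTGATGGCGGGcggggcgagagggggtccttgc
Promoters in the RefSeq table were found for 28 of the 34 members. In these windows, from 250 bases before to 50 bases after the start, 5 motifs were searched on both strands. AGGTCA, the half-site of nuclear receptors, was found in the windows of *Cpt1a*, *Acadm*, *Acadvl* and *Echs1*, 4 of 28, and in 18.1% of all promoters. AAGGTCA, which contains it and is the site of estrogen-related receptors, was found in that of *Acadm* alone, and in 5.38% of all promoters. A direct repeat of the half-site with a spacing of 1 base, the element bound by PPARα with its partner RXR, was searched as an exact match. It was found in 0 members and in 0.0481% of promoters. At so low a rate, 0 of 28 does not tell whether the members have such an element. The motif of NRF1 was found in the windows of *Acad10*, *Etfb* and *Etfdh* (5.19% of all promoters), and CACGTG in that of *Acot11* (8.09%). The 250 bases before the start of *Acadm* are shown for their AAGGTCA, in capitals as the reverse complement (chr3:153944644-153944893, minus strand).
Acadm: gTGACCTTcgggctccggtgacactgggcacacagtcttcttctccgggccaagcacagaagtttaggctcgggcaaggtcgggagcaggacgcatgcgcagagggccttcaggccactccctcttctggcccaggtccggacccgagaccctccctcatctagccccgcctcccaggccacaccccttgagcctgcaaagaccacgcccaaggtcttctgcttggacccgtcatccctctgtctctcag

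No member passed the adjusted threshold of 0.05 in either sex, in the contrast of the KO effects of females and males, in the mean KO effect over both sexes or in male against female WT. The test was limma on log2(TPM + 0.5), with p-values adjusted by Benjamini-Hochberg over all genes with a mean of at least 1 TPM, which included all 34 members. The background was low in most comparisons: 0.00821% of 12176 genes were called in males, 0% of 12141 in females, 0% of 12210 for the difference between the sexes, 2.93% of 12210 for the mean effect and 0.0664% of 12042 in WT. In males 0 of the 34 members had an unadjusted p under 0.05, where 17.7% of all genes were higher and 1.07% lower at that level. In females 0 members were higher and 4 were lower, *Acot11*, *Hsd17b4*, *Crot* and *Acsl5*, where 11.6% of all genes were higher and 5.45% lower. The count of members called stayed at 0 in every alternative that was run.

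Differences of the members were small. In males the median log2 fold change (KO over WT) was 0.091 over the members and 0.16 over all genes tested. In females it was -0.039 over the members and 0.10 over all genes. Rescaling by median-of-ratios factors sets the bulk of genes near 0 by construction (medians of all genes 0.0044 and 0.013), and whether the medians of the deposited scale reflect scaling or a broad difference cannot be told apart. With that rescaling the members' medians became -0.076 in males and -0.14 in females, and 25 members were lower in males instead of 9. The female median also turned to 0.036 without female WT 1, 0.031 without female WT 3 and 0.044 without female KO 3, and was -0.14 without female WT 4. Set against the median of all genes, 16 of 34 members lay below it in both sexes (47.1%, against 25.4% of all genes). Above it in both lay 0 members, against 2965 of 11795 genes. The summed level of the members was 17102 ± 1427 TPM (SD, n = 4) in male WT, 18218 ± 868 TPM in male KO, 15845 ± 2645 TPM in female WT and 15014 ± 1649 TPM in female KO, so that KO and WT differed by less than the SD of the WT libraries in both sexes.

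**Figure D2:**
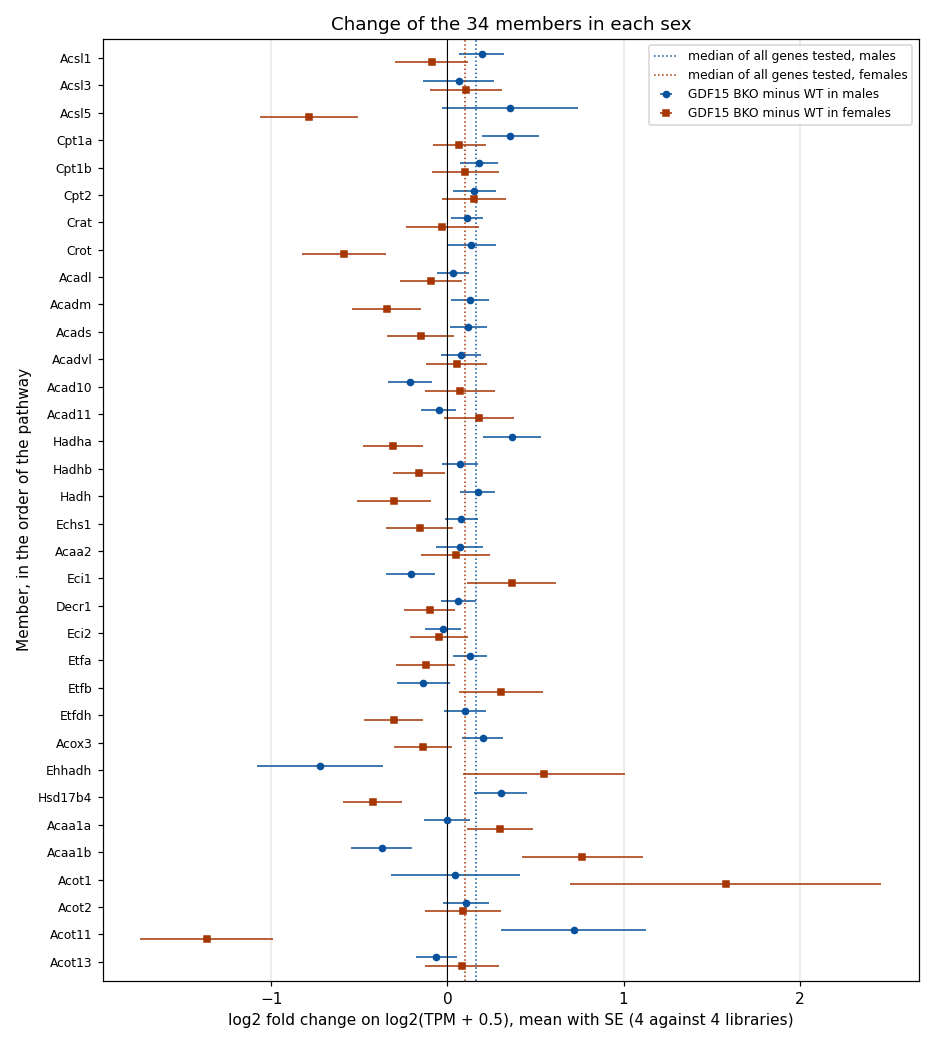
Log2 fold change of KO over WT with its standard error for the 34 members in the order of the pathway, in males (circles) and females (squares), with dotted lines at the median of all genes tested (0.16 in males and 0.10 in females). Most members lie within 0.4 of 0, and *Acot11*, *Ehhadh*, *Acaa1b*, *Acsl5*, *Crot* and *Acot1* lie farthest out, in opposite directions in the 2 sexes except for *Acot1*.

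Activation of fatty acids and their transfer to carnitine come first in the pathway. *Acsl1*, the main long-chain acyl-CoA synthetase of brown fat, had log2 fold changes of 0.20 ± 0.13 (SE) in males and -0.090 ± 0.21 in females, and *Acsl3* of 0.063 ± 0.20 and 0.11 ± 0.20. None of these differences exceeded 2 standard errors. *Acsl5*, another long-chain synthetase, was at 35, 53.3, 102 and 51.9 TPM in male WT and at 38, 116, 75.1 and 79.9 TPM in male KO. Among females it was at 96, 93.6, 74.9 and 91.8 TPM in WT and at 40.9, 78.4, 67.8 and 31.4 TPM in KO. The male groups overlapped, and 3 of 4 female KO libraries lay below all female WT libraries. The log2 fold change of *Acsl5* in females was -0.79 ± 0.28 (adjusted p = 0.243, exact permutation p = 0.0571), and it was -0.28 without female KO 1 and 4.

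*Cpt1a* and *Cpt1b*, which commit acyl groups to carnitine, overlapped between the genotypes in both sexes. *Cpt1a* was at 4.98, 5.79, 6.03 and 6.23 TPM in male WT and at 5.44, 7.97, 7.42 and 9.73 TPM in male KO, so that 3 of 4 KO libraries exceeded all WT libraries. Its log2 fold change in males was 0.36 ± 0.16 (adjusted p = 0.272, exact permutation p = 0.114). In females it was at 4.46, 4.77, 5.34 and 4.2 TPM in WT and at 6.09, 5.09, 3.71 and 5.08 TPM in KO, with overlapping groups and a log2 fold change of 0.068 ± 0.15. *Cpt1b* was at 394, 493, 459 and 508 TPM in male WT, 492, 504, 558 and 539 TPM in male KO, 501, 317, 444 and 406 TPM in female WT and 506, 468, 341 and 472 TPM in female KO. The groups overlapped in both sexes, with log2 fold changes of 0.18 ± 0.11 (adjusted p = 0.373) and 0.10 ± 0.19 (adjusted p = 0.783). *Cpt1b* also marks skeletal muscle, whose 12 marker genes summed to 25.5 to 2430 TPM in male WT, 24.2 to 5434 TPM in male KO, 7.5 to 1608 TPM in female WT and 12.3 to 4666 TPM in female KO, with no marker at 0 throughout a group. In male KO 1, which had the highest sum, *Cpt1b* was at 492 TPM, and in female WT 1, which had the lowest, at 501 TPM. These are 2 libraries of different sex and genotype, and the part of muscle in the *Cpt1b* values was not tested.

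The other enzymes of the carnitine shuttle were *Cpt2*, *Crat* and *Crot*. *Cpt2*, which returns the acyl group to coenzyme A in the matrix, had log2 fold changes of 0.15 ± 0.12 in males and 0.15 ± 0.18 in females, and *Crat*, which handles acetyl groups, of 0.11 ± 0.090 and -0.029 ± 0.21. *Crot*, the peroxisomal carnitine octanoyltransferase, was at 15.1, 14.2, 15.2 and 16.9 TPM in male WT and 13, 20.2, 18.6 and 16.5 TPM in male KO. Among females it was at 18.7, 17.6, 17.8 and 13.1 TPM in WT and 7.8, 15.9, 13.5 and 8.38 TPM in KO. Female KO 1 and 4 lay below every other library, whereas female KO 2 and 3 lay within the female WT range. The log2 fold change was 0.14 ± 0.14 in males and -0.59 ± 0.24 in females (adjusted p = 0.268, exact permutation p = 0.0857), and -0.18 in females without those libraries.

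The acyl-CoA dehydrogenases, which take the first pair of electrons at each chain length, overlapped between KO and WT in both sexes. *Acadl* was at 1201, 1328, 1387 and 1391 TPM in male WT, 1275, 1396, 1413 and 1340.5 TPM in male KO, 1423, 1139, 1409 and 986 TPM in female WT and 1080.2, 1401, 1065 and 1075 TPM in female KO. Its log2 fold changes were 0.033 ± 0.090 (adjusted p = 0.85) in males and -0.10 ± 0.18 (adjusted p = 0.778) in females, and the groups overlapped. *Acadm*, the medium-chain enzyme, was at 939.9, 889.9, 1081 and 1147 TPM in male WT and 1010.1, 1165, 1155 and 1089.7 TPM in male KO, and at 1106, 990.0, 1065 and 740.4 TPM in female WT and 619, 998, 753 and 712 TPM in female KO. The groups overlapped, and female KO 1 and 4 were the lowest of all 16 libraries. The log2 fold changes of *Acadm* were 0.13 ± 0.11 and -0.35 ± 0.20 (adjusted p = 0.526 and 0.377). *Acads* (short-chain) differed by 0.12 ± 0.10 and -0.15 ± 0.19, *Acadvl* by 0.079 ± 0.11 and 0.052 ± 0.17, and *Acad11* by -0.048 ± 0.10 and 0.18 ± 0.20, all on the log2 scale and with overlapping groups. *Acad10* was at 19.2, 25.3, 18.1 and 21.1 TPM in male WT and 19.9, 17.8, 18.1 and 15.7 TPM in male KO (log2 fold change -0.21 ± 0.12, adjusted p = 0.363, exact permutation p = 0.171, and -0.12 without male WT 2), and at 22.5, 15.5, 22 and 15.1 and 21.6, 25.1, 15.9 and 16.5 TPM in female WT and KO (0.071 ± 0.20).

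Electrons from these enzymes pass to the flavoprotein of *Etfa* and *Etfb* and on to ubiquinone through *Etfdh*. The log2 fold change of *Etfa* was 0.13 ± 0.10 in males and -0.12 ± 0.17 in females, that of *Etfb* -0.14 ± 0.15 and 0.30 ± 0.24, and that of *Etfdh* 0.10 ± 0.12 and -0.31 ± 0.17. The subunits *Etfa* and *Etfb* thus lay on opposite sides of 0 within each sex, with each difference under 2 standard errors. *Etfb* has a main transcript of 893 bases, and its highest value was in male WT 2.

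Hydration, the second dehydrogenation and cleavage of long chains are the work of the trifunctional protein. Its α-subunit *Hadha* was at 864, 951, 1231 and 1184 TPM in male WT and 1038, 1541, 1449 and 1437 TPM in male KO. In females it was at 1166, 1060.1, 1156 and 852 TPM in WT and 791, 1074, 786 and 773 TPM in KO. In males 3 of 4 KO libraries lay above all WT libraries, and in females 3 of 4 lay below them. The log2 fold change of *Hadha* was 0.37 ± 0.16 in males (adjusted p = 0.27, exact permutation p = 0.0857) and -0.31 ± 0.17 in females (adjusted p = 0.37, exact permutation p = 0.0857). *Hadhb*, which shares its promoter region, differed by 0.070 ± 0.10 and -0.16 ± 0.15. Within prefix 9, with 2 male WT and 3 male KO libraries, the male difference of *Hadha* was 0.29, and within prefix 8b, with 3 female WT and 1 female KO, the female difference was -0.37.

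For shorter chains the steps are carried by single enzymes. *Hadh*, the hydroxyacyl-CoA dehydrogenase, was at 786, 814, 943 and 914 TPM in male WT and 896, 1028, 989 and 975 TPM in male KO, and 3 of 4 KO libraries lay above all WT libraries (0.17 ± 0.10, adjusted p = 0.355, exact permutation p = 0.0857). The male difference was 0.0020 with median-of-ratios scaling. Levels in females were 938, 779.9, 933 and 659 TPM in WT and 560.5, 936, 655 and 563 TPM in KO, where 3 of 4 KO libraries lay below all WT libraries (-0.30 ± 0.21, adjusted p = 0.448, exact permutation p = 0.2). The hydratase *Echs1* differed by 0.079 ± 0.093 and -0.16 ± 0.19, and the thiolase *Acaa2* by 0.069 ± 0.13 and 0.046 ± 0.20, on the log2 scale in males and females.

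Unsaturated fatty acids need auxiliary enzymes. *Eci1*, the mitochondrial enoyl-CoA isomerase, was at 399, 602, 450.0 and 419 TPM in male WT and 429.7, 406, 384 and 378 TPM in male KO. In females it was at 571, 357, 515 and 306 TPM in WT and 634, 571, 384 and 634 TPM in KO. The male groups overlapped, with male WT 2 the highest male library, and female KO 1 and 4 were the highest of all libraries. Its log2 fold changes were -0.21 ± 0.14 (adjusted p = 0.416, exact permutation p = 0.143) in males and 0.36 ± 0.25 (adjusted p = 0.45, exact permutation p = 0.171) in females. They were -0.081 in males without male WT 2, 0.15 in females without female KO 1 and 4, and 0.19 in females when only transcripts of at least 1000 bases were summed. *Decr1*, a dienoyl-CoA reductase, differed by 0.063 ± 0.10 and -0.10 ± 0.14, and *Eci2*, a second isomerase, by -0.025 ± 0.10 and -0.048 ± 0.16.

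The peroxisomal members lay on both sides of 0 in each sex. *Hsd17b4* and *Ehhadh* encode alternative bifunctional enzymes of the middle steps, acting on hydroxyacyl-CoA of opposite handedness. *Hsd17b4* was at 121, 111, 146 and 155 TPM in male WT and 129, 182, 172 and 175 TPM in male KO, and at 120.2, 132, 128 and 104 TPM in female WT and 74.4, 116, 92.2 and 81.7 TPM in female KO. In males 3 of 4 KO libraries lay above all WT libraries, and in females 3 of 4 lay below them. Its log2 fold changes were 0.30 ± 0.15 (adjusted p = 0.306, exact permutation p = 0.143) and -0.42 ± 0.17 (adjusted p = 0.264, exact permutation p = 0.0571). The female value was -0.22 without female KO 1 and 4 and -0.39 within prefix 8b, and the male value was 0.22 within prefix 9.

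*Ehhadh* was at 30.9, 33.1, 9.6 and 18.5 TPM in male WT and 13.5, 11.5, 9.7 and 15.4 TPM in male KO, and at 51.5, 19.9, 23.7 and 11.7 TPM in female WT and 57.9, 21.9, 23.1 and 46 TPM in female KO. The groups overlapped in both sexes. The 2 male WT libraries of prefix 5 were above all other male libraries, whereas female KO 2, also of prefix 5, was at 21.9 TPM. Female WT 1 and female KO 1, both of prefix 10, were the highest of all, followed by female KO 4 of prefix 9. Male KO 1, also of prefix 10, was at 13.5 TPM. The log2 fold change of *Ehhadh* was -0.72 ± 0.36 in males (adjusted p = 0.301, exact permutation p = 0.171) and -0.15 within prefix 9. In females it was 0.55 ± 0.46 (adjusted p = 0.52, exact permutation p = 0.371) with 0.38 within prefix 8b and 0.17 between the 2 libraries of prefix 10.

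The peroxisomal thiolases cleave the chain at the last step. *Acaa1b* was at 22.3, 35.2, 19 and 22.6 TPM in male WT and 19.1, 18.2, 17 and 19.8 TPM in male KO, and at 31.8, 16.4, 24.6 and 15.7 TPM in female WT and 47.2, 37.9, 18.8 and 52.1 TPM in female KO. In males 2 of 4 KO libraries lay below all WT libraries, and 3 of 4 female KO libraries lay above all female WT libraries. Its log2 fold changes were -0.37 ± 0.17 (adjusted p = 0.283, exact permutation p = 0.0857) in males and 0.77 ± 0.34 (adjusted p = 0.297, exact permutation p = 0.114) in females. Without male WT 2 the male value was -0.19, and without female KO 1 and 4 the female value was 0.33. Its near-identical relative *Acaa1a* was at 54.2, 77, 54.8 and 68.7 TPM in male WT, 65.6, 65.5, 63.2 and 57.4 TPM in male KO, 71.1, 46.9, 62.8 and 44.7 TPM in female WT and 72.1, 74.9, 54.8 and 73.1 TPM in female KO. *Acaa1a* differed by -0.0026 ± 0.13 in males and 0.30 ± 0.19 in females (adjusted p = 0.414), a smaller size in each sex than *Acaa1b*. *Acox3*, the oxidase of branched chains, differed by 0.20 ± 0.12 in males and -0.14 ± 0.16 in females.

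Thioesterases release free fatty acids from coenzyme A. *Acot11*, known as a cold-induced thioesterase of brown fat that restrains fatty acid oxidation, showed the largest difference between the sexes among the members. It was at 54, 54.3, 149 and 98.4 TPM in male WT and 67.2, 204, 159 and 145 TPM in male KO, and at 75.7, 115, 80.7 and 119.9 TPM in female WT and 21.7, 63.7, 58 and 22.8 TPM in female KO. The male groups overlapped, and the female groups did not, which made *Acot11* the only 1 of 34 members whose KO and WT values were fully separated in a sex (3.19% of all genes were separated downwards and 4.89% upwards in females, and 0.673% and 9.55% in males). Its log2 fold change in females was -1.37 ± 0.38 (adjusted p = 0.231, exact permutation p = 0.0286), which did not pass the threshold over all genes. In males it was 0.72 ± 0.41 (adjusted p = 0.36, exact permutation p = 0.2). The female value was -0.65 without female KO 1 and 4, -0.83 within prefix 8b and -1.78 between the libraries of prefix 10. The male value was 0.47 within prefix 9, where male KO 2 was the highest library and male WT 4 the lowest.

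*Acot1*, a cytosolic thioesterase strongly induced by PPARα in liver, was at 2.07, 4.38, 1.39 and 0.958 TPM in male WT and 2.77, 1.35, 1.61 and 2.58 TPM in male KO, and at 10.8, 3.13, 10.8 and 1.96 TPM in female WT and 38.9, 9.07, 3.35 and 62.3 TPM in female KO. Female KO 1 and 4 stood far above all other libraries, while female KO 2 and 3 lay within the female WT range. The log2 fold change in females was 1.58 ± 0.88 (adjusted p = 0.37, exact permutation p = 0.229), and it was 0.064 without these libraries. *Acot1* has no transcript of at least 1000 bases with a mean of 1 TPM, and its value rests on the short transcripts named above. *Acot2* was at 19.8, 24.2, 24.4 and 25.4 TPM in male WT, 21.9, 23.7, 24.8 and 31 TPM in male KO, 29.9, 20.7, 28.5 and 20.5 TPM in female WT and 27.5, 23, 20 and 37.1 TPM in female KO, with log2 fold changes of 0.10 ± 0.13 and 0.090 ± 0.22 and the highest value again in female KO 4. *Acot13* differed by -0.062 ± 0.11 and 0.082 ± 0.21.

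**Figure D3:**
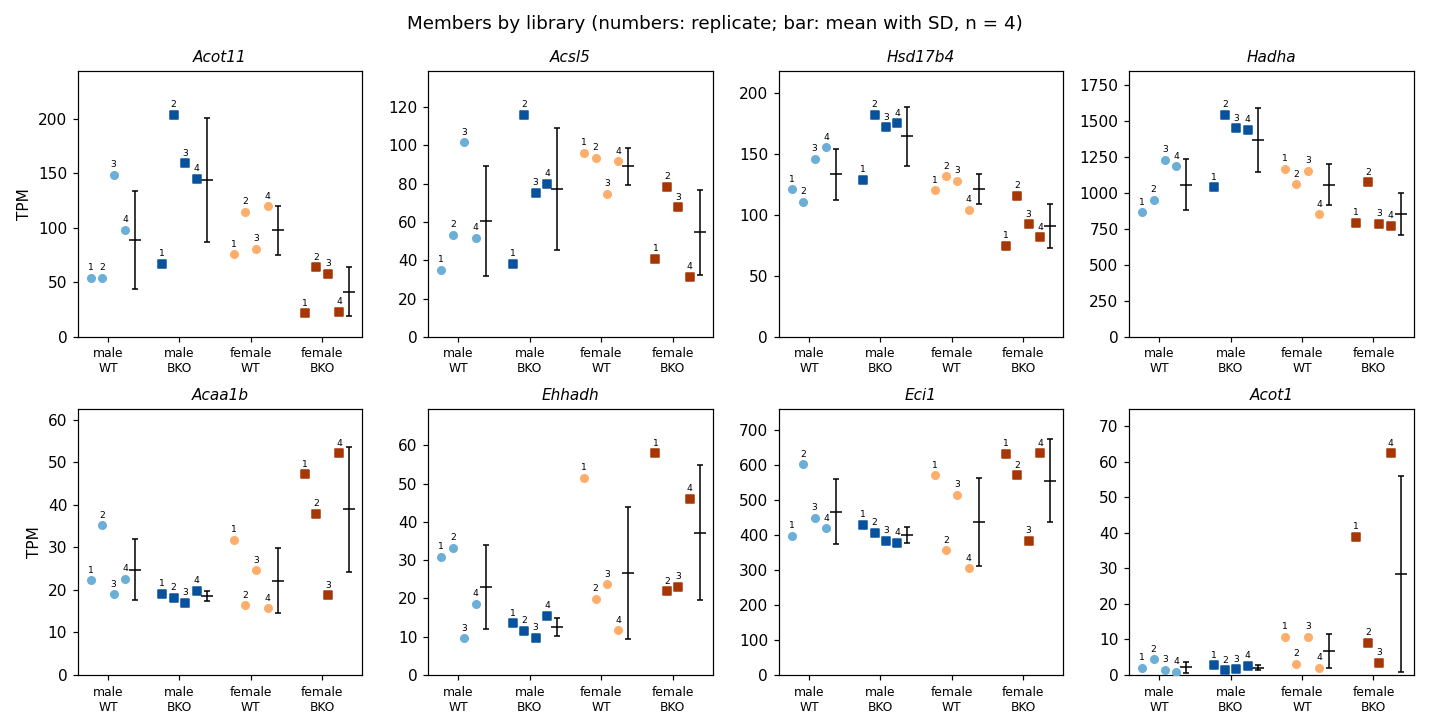
TPM of 8 members in each library, with points numbered by replicate and the mean with SD (n = 4) beside each group. *Acot11*, *Acsl5*, *Hsd17b4* and *Hadha* are lower in female KO 1 and 4 than in female WT, *Acaa1b*, *Eci1* and *Acot1* are higher there, and *Ehhadh* is high in both libraries as well as in female WT 1.

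The KO effect had opposite signs in the 2 sexes for 25 of the 34 members, 17 of them higher in male KO and lower in female KO and 8 the reverse. Over all genes tested in both sexes the same patterns took 28.7% and 11.8%. Set against the median of all genes, 9 members showed the first pattern and 9 the second (26.5% each, against 24.4% and 25% of all genes), so that the balance of the patterns depends on the scale. *Acot11*, *Hsd17b4* and *Hadha* had the smallest p when the KO effect of females was set against that of males. Female minus male, it was -2.08 ± 0.60 for *Acot11*, -0.73 ± 0.23 for *Hsd17b4* and -0.68 ± 0.24 for *Hadha*, with adjusted p = 0.216, 0.218 and 0.241. In all, 6 members (*Acot11*, *Hsd17b4*, *Hadha*, *Crot*, *Acsl5* and *Acadm*) had a more negative effect in females and 1 (*Acaa1b*) a more positive effect at an unadjusted p under 0.05, where 11.7% and 2.51% of all genes did. Without female KO 1 and 4 the differences were -1.37, -0.52 and -0.56 for *Acot11*, *Hsd17b4* and *Hadha*, with the same sign and adjusted p = 0.787.

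The mean KO effect over both sexes had a median of 0.020 over the members, against 0.13 for all genes. At an unadjusted p under 0.05, 0 members were higher and 0 lower, where 21.4% and 2.58% of all genes were. The members with the smallest p were *Cpt1a* at 0.21 ± 0.11 (adjusted p = 0.256), *Crot* at -0.23 ± 0.14 (adjusted p = 0.338) and *Acot1* at 0.81 ± 0.52 (adjusted p = 0.345). In WT mice the members tended to slightly higher levels in males, with a median log2 difference of 0.12 (male minus female), against 0.053 for all genes, and 27 of 34 members higher. At an unadjusted p under 0.05, 1 member was higher and 2 were lower in males, where 2.17% and 1.25% of all genes were. The smallest p belonged to *Acsl5* at -0.66 ± 0.28, *Acot1* at -1.26 ± 0.55 and *Cpt1a* at 0.27 ± 0.12, each with an adjusted p near 1 and with overlapping groups (exact permutation p = 0.143, 0.171 and 0.0571).

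Mitochondrial and peroxisomal steps were compared through the mean of log2(TPM + 0.5) over the 18 and the 6 members in each library. The mitochondrial mean exceeded the peroxisomal mean by 3.79 ± 0.20 (SD, n = 4) in male WT, 3.95 ± 0.049 in male KO, 3.69 ± 0.11 in female WT and 3.57 ± 0.078 in female KO. The difference was thus 0.16 larger in male KO than in male WT and 0.13 smaller in female KO than in female WT. In males the mitochondrial mean was 0.086 higher and the difference of the peroxisomal mean was -0.077, and in females the difference of the mitochondrial mean was -0.050 and the peroxisomal mean was 0.077 higher. These differences are smaller than the range of the WT libraries, whose values ran from 3.62 to 4.08 in males and from 3.53 to 3.78 in females, and KO and WT overlapped in both sexes. Within the peroxisomal members, *Hsd17b4*, *Crot* and *Acox3* had one sign in each sex and *Ehhadh* and *Acaa1b* the other.

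**Figure D4:**
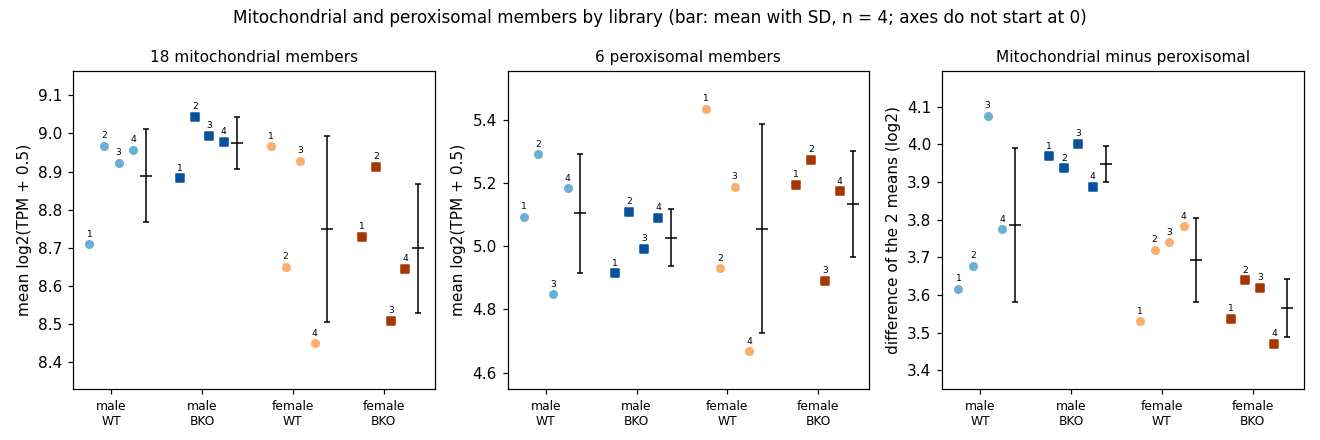
Mean log2(TPM + 0.5) of the 18 mitochondrial and the 6 peroxisomal members and their difference in each library, with mean and SD (n = 4). The difference lies at 3.89 to 4.0 in male KO, within the 3.62 to 4.08 of male WT, and at 3.47 to 3.64 in female KO, against 3.53 to 3.78 in female WT.

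Transcripts of the same gene were compared because TPM of a gene is a sum over its transcripts. In 15 of the 34 members the most abundant transcript held at least 90% of the TPM on average, and in 5 it held less than 50%. The share of the most abundant transcript did not overlap between KO and WT for 1 member in males (3.81% of all genes) and 5 members in females (7.3% of all genes), namely *Cpt2*, *Acadm*, *Acadvl*, *Acad10* and *Acaa2*. The male case was *Hadh*, whose share was 99.9% in both groups. For *Hadha* the most abundant transcript, Hadha-201, held 57.2% on average and is annotated as a processed transcript, not as protein-coding. Hadha-204, of 323 bases and annotated likewise, held 28.0 to 40.1% across libraries. The protein-coding Hadha-205 held 7.5 to 8.9%. For *Acaa2* the second transcript, Acaa2-202 of 504 bases, which ends at the same base as the main one, took 11, 1.14, 5.76 and 9% of the TPM in female WT and 40.3, 12, 14.2 and 31.8% in female KO. Acadvl-203, a retained intron of 538 bases that ends 6 bases before the main transcript, took 2.63, 0.62, 1.47 and 2.55% in female WT and 36.6, 3.13, 4.44 and 24.3% in female KO. Cpt2-203, of 1015 bases, took 4.91, 0.555, 1.36 and 0.145% in female WT and 48.3, 5.46, 13.3 and 34.2% in female KO. In each case the shift was largest in female KO 1 and 4. The main transcript Acaa2-201 was at 1945, 1464, 1804 and 1213 TPM in female WT and 1174, 1775, 1338 and 1035 TPM in KO. Acadvl-202 was at 1364, 1159, 1384 and 996 TPM in female WT and 965, 1254, 1005 and 939 TPM in KO. Cpt2-201 was at 227, 211, 247 and 192 TPM in female WT and 151, 225, 160 and 191 TPM in KO. Each main transcript lay below all female WT libraries in female KO 1 and 4, and the groups overlapped. The gene values above also hold the second transcripts.

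The same libraries stood out across members. Among the 15 members whose second transcript is shorter than 1000 bases, female KO 1, female KO 4 and male WT 2 had the 3 highest shares for 6, namely *Acadvl*, *Hadha*, *Hadhb*, *Acaa2*, *Eci1* and *Etfa*. Hadhb-208, a retained intron of 507 bases, took 48.3%, 43.4% and 39.2% of the TPM of *Hadhb* in these libraries and 16.3 to 32.6% in the other 13. For *Acad10* a retained intron of 2071 bases, Acad10-205, took 66.9%, 63.1% and 55.2% there and 20.3 to 44.9% elsewhere. These libraries include both genotypes and both sexes. Among females, however, the share of the members' TPM in transcripts under 1000 bases did not overlap between the genotypes. It was 19.9, 15.5, 17.5 and 17.9% in female WT and 32.4, 20.03, 21 and 28.3% in female KO. The male groups overlapped in this share, and the female groups overlapped in the same share over all nuclear genes. Across members, Spearman's rho between the length of the main transcript and the log2 fold change was 0.52 in males and -0.35 in females (n = 34), and 0.069 and -0.24 across all genes tested; genes of the same libraries are not independent, and these are descriptions. The part of transcript length in the changes of the members was not tested.

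**Figure D5:**
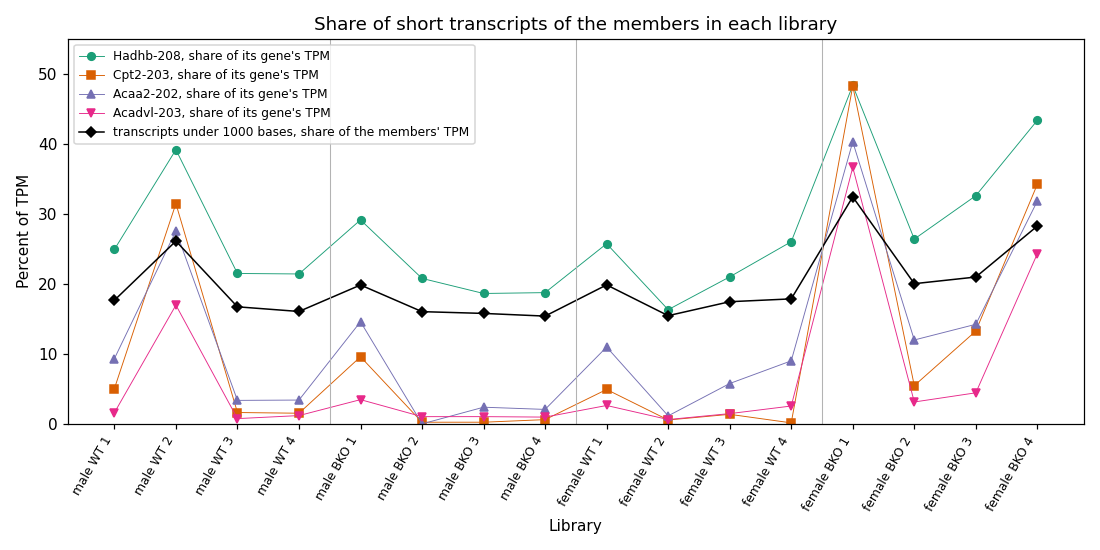
Share of TPM in short transcripts by library: 4 transcripts as a percentage of the TPM of their gene, and all transcripts under 1000 bases as a percentage of the members' TPM (black). Male WT 2, female KO 1 and female KO 4 are the 3 peaks, at 26.1%, 32.4% and 28.3% for the black line, against 15.4 to 21% in the other 13 libraries.

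Regulators of the pathway gave the sole call among the lists set beside the members that concern metabolism. *Ppara*, the receptor that activates many of these genes, was at 41.7, 38.8, 51.8 and 64.4 TPM in male WT, 29.3, 35.4, 38.2 and 46.3 TPM in male KO, 67.5, 37.4, 63.2 and 52.3 TPM in female WT and 23.8, 34.8, 24.9 and 28.4 TPM in female KO. In males 3 of 4 KO libraries lay below all WT libraries, and in females the groups did not overlap. Its mean effect over both sexes was -0.67 ± 0.15 (adjusted p = 0.0313), with -0.38 ± 0.19 in males (adjusted p = 0.3) and -0.95 ± 0.21 in females (adjusted p = 0.231, exact permutation p = 0.0286). The call was lost in 11 of 28 alternatives, among them no TPM minimum (adjusted p = 0.084), the library prefix as covariate (adjusted p = 0.0598) and the removal of female KO 1 and 4 together (adjusted p = 0.197). The other 8 were removals of a single library: male WT 1 or 3, male KO 1, 2 or 3, female WT 3, and female KO 1 or 4, with adjusted p between 0.0525 and 0.0735. The value stayed between -0.80 and -0.60 in all 28. Among the 17 regulators 1 was called over both sexes, where 2.93% of all genes were, and 0 within a sex. *Esrrg*, an estrogen-related receptor, was at 5.5, 4.82, 5.42 and 4.11 TPM in female WT and 0.984, 3.36, 2.54 and 2.36 TPM in female KO, without overlap (-1.03 ± 0.27, adjusted p = 0.231). *Ppara* and *Esrrg* were the 2 of 17 regulators separated downwards in females, where 3.19% of all genes were.

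Targets of PPARα outside the members showed no call. Of 16 listed, 12 were tested in females and 11 in males, and 0 were called. Their median log2 fold change was -0.089 in males and 0.20 in females, against 0.16 and 0.10 for all genes. *Vnn1* had the smallest p among them in females, at 1.08, 0.933, 1.24 and 0.618 TPM in WT and 2.84, 1.95, 1.16 and 2.96 TPM in KO (0.85 ± 0.27, adjusted p = 0.231), with its highest values in female KO 1 and 4. Of 44 further genes of fatty acid oxidation and transport, 37 were tested in males and 36 in females and 0 were called, with medians of 0.045 and -0.058. Those with the smallest p were *Slc27a2*, an acyl-CoA synthetase and transporter, at -0.80 ± 0.18 in males (adjusted p = 0.16) and *Abcd2*, a peroxisomal fatty acid transporter, at -1.02 ± 0.27 in females (adjusted p = 0.231). Of 19 genes of peroxisome biogenesis 0 were called, with medians of 0.086 and 0.015.

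Neighbouring pathways with the same or the opposite direction of flow were read in the same way. The TCA cycle takes up the acetyl-CoA made here. Of its 18 genes, 17 were higher in male KO and 15 lower in female KO, and 0 were called. Their medians were 0.15 and -0.24, against 0.16 and 0.10 for all genes. Of 11795 genes tested in both sexes, 6042 were higher in both and 3383 were higher in male KO and lower in female KO. With median-of-ratios rescaling 8 TCA genes were higher in males and 17 lower in females. The 35 genes of the respiratory chain had medians of 0.0072 and 0.25. De novo lipogenesis, the synthesis of the acids that the members degrade, had the widest split of these lists, with medians of 0.52 in males and -0.81 in females over 15 genes, 14 higher in male KO and 12 lower in female KO. Its gene with the smallest p in both sexes was *Me1*, malic enzyme, at 59.1, 51.8, 115 and 124 TPM in male WT, 78.2, 297, 196 and 232 TPM in male KO, 126, 143, 77.2 and 124 TPM in female WT and 35.2, 60.6, 73 and 41.5 TPM in female KO (1.15 ± 0.44 and -1.18 ± 0.27, adjusted p = 0.233 and 0.231). For *Me1* and *Acot11* alike, male KO 2 was the highest and female KO 1 and 4 were the lowest of the 16 libraries.

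Among markers of other cell types, 3 of 13 macrophage, 3 of 10 fibroblast and 2 of 10 endothelial markers tested were called higher in KO over both sexes (limma, adjusted p under 0.05). Of all genes 2.93% were called there, and within a sex 0 of these markers were. At an unadjusted limma p under 0.05, 11 of 14 macrophage, 7 of 10 fibroblast and 3 of 10 endothelial markers were higher in males (17.7% of all genes). In females 1 of 12, 1 of 10 and 9 of 10 were higher (11.6% of all genes). The 16 macrophage markers summed to 53.3 to 103 TPM in male WT and 135 to 203 TPM in male KO, and to 63.3 to 139 TPM and 87.3 to 126 TPM in female WT and KO. The 10 endothelial markers summed to 258 to 511 TPM and 402 to 474 TPM in male WT and KO, and to 236 to 364 TPM and 392 to 784 TPM in female WT and KO. The 10 fibroblast markers summed to 126 to 214 TPM and 260.2 to 272 TPM in males and to 172 to 232 TPM and 169 to 274 TPM in females. The 15 brown adipocyte markers summed to 10231 to 14946 TPM in male WT, 11087 to 12462 TPM in male KO, 7149 to 11755 TPM in female WT and 8678 to 14054 TPM in female KO. White adipocyte markers summed to 550 to 891 TPM over all groups, and lymphocyte markers to 2.90 to 8.45 TPM. No marker of these lists was at 0 in all libraries of a group. In bulk tissue, fewer brown adipocytes and less mRNA per cell cannot be told apart, and the part of cell composition in the members' levels was not tested.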

How the data were processed

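BAT mRNA was sequenced as single-end reads from stranded libraries. The authors quantified transcripts with kallisto (0.46.2; the submitters' processing notes name GRCm39, the annotation release is not given in the sources used here) and deposited TPM for 16 libraries, all of which were used. Transcripts were summed per gene symbol with GENCODE mouse release 21, matching 135051 of 137438 identifiers once versions were dropped. Because the authors' test, DESeq2, needs counts, KO and WT were compared by limma (3.58.1) on log2(TPM + 0.5) with a variance trend, for genes with a mean of at least 1 TPM in the libraries compared. P-values were adjusted by Benjamini-Hochberg with a threshold of 0.05. Exact two-sided permutation tests used all 70 splits of 4 against 4 libraries. Comparisons were made within males, within females, between both effects, over their mean and between the sexes in WT. Fits were tested on simulated data.

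Members, lists, tests and alternatives were chosen with earlier results of these data known. Values in every library are given for members past the threshold, for the 4 with the smallest p per direction in each sex, for the 3 with the smallest p in each other comparison, for *Cpt1b*, *Acadl* and *Acadm*, and for both near-identical pairs. Of the other lists, at most the 2 genes with the smallest p per direction are named. Alternatives varied pseudocount, TPM minimum, scaling, variance trend, replicate block, name prefix, libraries and transcript length.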

Additional observations from a re-analysis of the deposited data

Results flagged for a closer look

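A library stood apart from the other 3 of its group for 7 of 136 combinations of member and group examined, where chance gives about 6.8 at the 95% level of Dixon's test. Female KO 2 was above the other female KO libraries for 3 mitochondrial members: *Acadl* at 1401 TPM (others 1065 to 1080 TPM), *Hadha* at 1074 TPM (others 773.3 to 791.2 TPM) and *Echs1*, the short-chain hydratase, at 579.8 TPM (others 417.8 to 425.8 TPM). *Etfb* was at 1360 TPM in male WT 2, against 897.1 to 966.8 TPM in the other male WT libraries. *Eci2* was at 138 TPM in male KO 2, against 114.2 to 116.2 TPM. Below the rest of their groups were *Decr1* in male WT 1, at 267.4 TPM (others 304.4 to 309.2 TPM), and *Acaa1a* in female KO 3, at 54.8 TPM (others 72.13 to 74.9 TPM).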

How the results depend on the processing

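The count of members called was 0 in all 5 comparisons under every alternative run. The smallest adjusted p of a member (limma, Benjamini-Hochberg) was 0.17 in males, 0.104 in females, 0.087 for the contrast of both effects, 0.104 for the mean effect and 0.793 in WT. Counts over all genes were less stable. In males 1 gene was called, and 2 with pseudocount 0.1, 0 without a TPM minimum, 3 with median-of-ratios scaling, 12 when scaled without the mitochondrial genome (12 also without unmatched transcripts), 26 with transcripts of at least 1000 bases, 6 with the prefix as covariate, 40 in a fit of all 16 libraries and 0 to 5 with a library left out. In females 0 genes were called, and 6 with transcripts of at least 1000 bases, 8 with the prefix, 5 with all 16 libraries, 1 without female KO 1 and 4 and 0 to 9 with a library left out. The contrast of both effects gave 0 calls, and 1 with transcripts of at least 1000 bases, 1 without the variance trend and 0 to 3 with a library left out. The mean effect gave 358 calls, and 54 without a TPM minimum, 177 with a minimum of 5 TPM, 543 when scaled without mitochondrial and unmatched transcripts, 880 with transcripts of at least 1000 bases, 12 with the prefix, 9 without female KO 1 and 4, and 31 (without male KO 3) to 1055 (without male WT 2) with a library left out. In WT 8 genes were called, and 3 with a minimum of 5 TPM, 24 with the prefix and 5 to 11 with a library left out. The cause of these shifts was not tested.

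The members' median in males, 0.0908, became -0.0763 with median-of-ratios scaling and -0.0152 and -0.0154 when scaled without the mitochondrial genome and also without unmatched transcripts, and it was 0.0415 (without male WT 1) to 0.1349 (without male KO 1) with a library left out. The female median, -0.0385, ran from -0.1385 (without female WT 4) to 0.0436 (without female KO 3), with its sign turned also without female WT 1 and without female WT 3. For 26 single-gene results, 569 of 580 alternative values kept direction and side of the threshold, 0 reversed, and the other 11 were the lost calls of *Ppara*, but sizes moved: with median-of-ratios scaling the male value of *Hadh* became 0.0020, of *Hadha* 0.20, of *Cpt1a* 0.20, of *Hsd17b4* 0.13, of *Acad10* -0.38 and of *Eci1* -0.38. Apart from *Ppara*, these results were uncalled and were picked by their smallest p in the same data. The count of values kept is therefore no measure of how firm they are. The mitochondrial minus peroxisomal difference, KO minus WT, stayed between 0.11 and 0.26 in males and between -0.19 and -0.064 in females. Replicate numbers did not pair the samples: deviations of same-numbered WT and KO libraries correlated between -0.081 and 0.349 in males and between -0.117 and 0.151 in females. With the replicate number as a block, 0 genes were called in males, 1 in females and 518 for the mean effect, and 0 members. Scaling without unmatched transcripts, the length limit and the removal of female KO 1 and 4 were chosen after seeing the data. Depth is unknown from TPM, and 4 libraries a group limit the precision.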
